A study of Homo sapiens with 2 samples.

Results

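The region described here is the large transfer RNA (tRNA) gene cluster on the short arm of chromosome 6, as mapped for E2F1, a transcription factor of the E2F family that controls genes for entry into S phase. Its members are the E2F1 peaks whose midpoint lay in 1 of 3 hg19 intervals around the cluster: chromosome 6 from 26290001 to 26850000, from 27120001 to 27769999 and from 28400000 to 28970000. The intervals leave out the stretches with histone genes between them. They held 93 of the 28734 peaks of the list, and 93 of the 1647 peaks on chromosome 6. The intervals were drawn with the high number of peaks in this part of chromosome 6 already known, so they were chosen by the measured positions of peaks in this list. Number, spacing, width and score are therefore given as a description, with no test.

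The peaks come from chromatin immunoprecipitation followed by sequencing (ChIP-seq) in LNCaP-abl, a line of androgen-independent prostate cancer cells derived from LNCaP. Cells at passages 61 to 64 were kept in medium with 10% charcoal-stripped serum and spent 3 days in androgen-depleted medium before collection. The E2F1 sample was made with antibodies from a pair of suppliers, and the other sample of the series is an input of the same cells without antibody, whose signal is not analysed here. There is 1 E2F1 library and no replicate. The list gives positions and scores without read counts, so the depth is unknown.

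tRNAs carry amino acids to the ribosome and are transcribed by RNA polymerase III from promoters that lie inside the genes themselves. E2F1 is best known at promoters of RNA polymerase II genes, while its partner RB, the retinoblastoma protein, is known to restrain both E2F factors and RNA polymerase III. In the RefSeq gene table of assembly GRCh38.p14, 155 of 465 tRNA genes (33.3%) are on chromosome 6, with a median length of 73 bp. The family with most genes there carries alanine, with 31 genes, followed by serine with 17 and isoleucine with 15.

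In gene order, the tRNA genes alternate with histone genes. After the first 34 histone genes, which end with H4C8, come 47 tRNA genes among 9 protein-coding genes, including the butyrophilin genes BTN3A2 to BTN1A1 as well as HMGN4, ABT1 and ZNF322. After 5 further histone genes, from H2BC11 to H2AC12, come 51 tRNA genes among 5 protein-coding genes, including the serine protease gene PRSS16 and the zinc finger genes ZNF391 and ZNF184. After 16 more histone genes, from H2BC13 to H2BC17, come 46 tRNA genes before HLA-F, with protein-coding genes such as ZSCAN23, GPX6, GPX5 and TRIM27 among them. This order is of another build than the peaks. Which peak lies at a tRNA gene, at a protein-coding gene or at neither was not analysed here, so the peaks are named by position only, and all positions are hg19 and 1-based.

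E2F1 peaks were dense in all 3 intervals. The 93 peaks in 1.78 Mb gave 52.2 peaks per Mb (95% Poisson interval 42.2 to 64.0), against 9.20 (8.75 to 9.67) in the rest of chromosome 6, which held 1554 peaks in 168.9 Mb. This was 5.68 times the density of the rest. The ratio was smaller for higher-scoring peaks, at 3.40 for the top 50% of the list by score and 1.82 for the top 10%, where it rests on 3 members and its interval of 0.372 to 5.43 includes a ratio of 1. Peaks covered 2.25% of the bases of the intervals and 0.461% of the rest. Poisson and binomial intervals cover counting error only, and neighbouring peaks are not independent.

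The 3 intervals were not equally full. The first held 21 peaks in 560 kb, or 37.5 per Mb (23.2 to 57.3). The second held 39 peaks in 650 kb, or 60.0 per Mb (42.7 to 82.0), and the third 33 peaks in 570 kb, or 57.9 per Mb (39.9 to 81.3). The Poisson intervals of the 3 densities overlapped. When the rest of chromosome 6 was cut into windows as long as each interval, the median window held 4 peaks for each length. Windows that touched any of the 3 intervals were left out. Of 299 windows as long as the first interval, 5 held at least 21 peaks, and 0 windows reached the number of the second (fullest of 257 windows, 34 peaks) or of the third (fullest of 294 windows, 30 peaks). The intervals were drawn with their peaks known and the windows were not, so these counts are a description and no measure of rarity.

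This part of chromosome 6 was rich in peaks beyond the 3 intervals too. From 24 to 34 Mb, outside the intervals, there were 229 peaks, or 27.9 per Mb (24.4 to 31.7), and the intervals exceeded that density 1.88 times. The 2 intervals in between, from 26850001 to 27120000 and from 27770000 to 28399999, held 35 peaks, or 38.9 per Mb (27.1 to 54.1). They are part of the rest of chromosome 6 here, except where stated. No window of the comparison above lay in them.

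**Figure D1:**
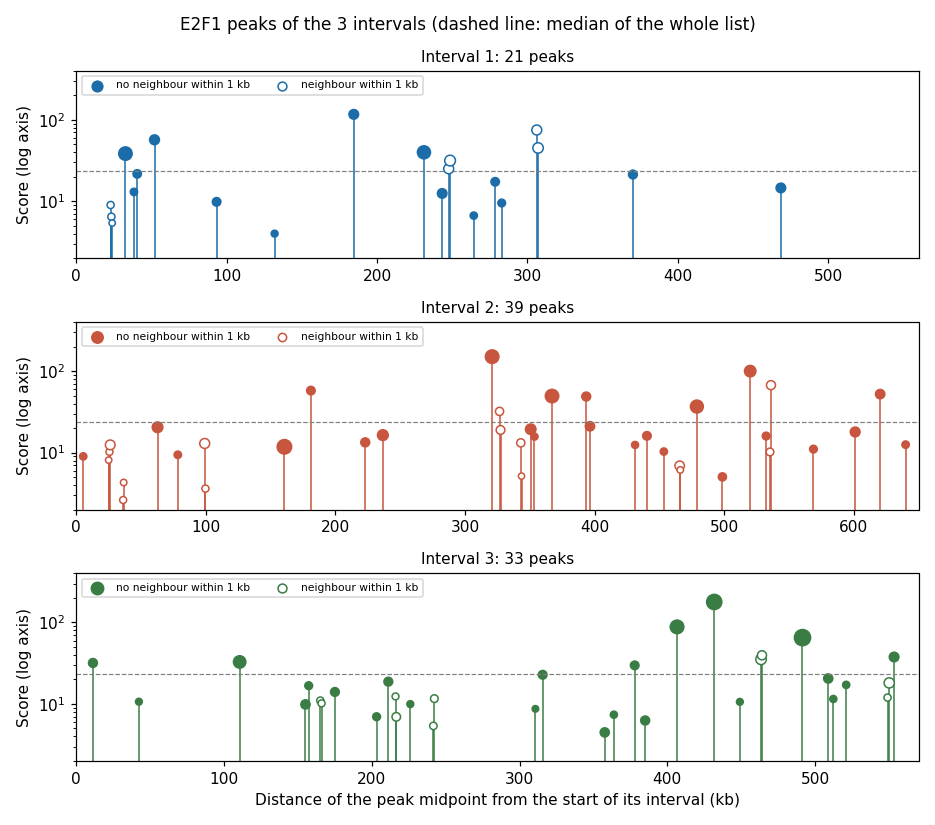
Score of each E2F1 peak (vertical, log axis) against the distance of its midpoint from the start of its interval (horizontal, kb), for the 3 intervals with 21, 39 and 33 peaks. Point area grows with peak width, open points have a neighbour within 1 kb, and the dashed line is the median score of the whole list, 23.5, below which 67 of the 93 peaks lie.

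The peaks scored low for the list. The score is the authors' own value for each peak, taken as higher for a stronger peak. Its scale is not named, so it is used only within this list. The median score of the 93 peaks was 13.4 (95% interval from order statistics 11.8 to 17.9), with quartiles of 9.84 and 31.6, against 21.1 (19.7 to 23.1) in the rest of chromosome 6, with quartiles of 9.56 and 56.0. A score of 13.4 lies at the 34.1st percentile of the list. From 24 to 34 Mb outside the intervals the median was 28.8 (21.2 to 36.4).

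Few members had high scores. Of the 93 peaks, 26 (28.0%, exact 95% interval 19.1 to 38.2%) reached the list's median score of 23.5, against 46.7% of the rest of chromosome 6 and 50% of all nuclear peaks. The top 10% of the list, at a score of 110 or more, held 3 members (3.23%, exact interval 0.670 to 9.14%), against 10% of the rest of chromosome 6 and 10% of all nuclear peaks. A score over 100 was found at 4 members, or 4.30%, against 11.5% in the rest of chromosome 6 and 12% of nuclear peaks. A score under 10 was found at 26 members, or 28.0% (exact interval 19.1 to 38.2%), against 26.3% in the rest of chromosome 6 and 24.8% of nuclear peaks. It was found at 17.0% (12.4 to 22.5%) of the peaks from 24 to 34 Mb outside the intervals and at 2 of the 35 peaks of the intervals in between. With the list cut at its score quartiles, the class from 10.1 to 23.5 held 41 members (44.1%) and 26.8% of the rest of chromosome 6. The class from 60.7 upwards held 8 members (8.60%) and 22.8% of the rest.

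The score medians of the 3 intervals had overlapping error ranges. The median was 17.4 (9.53 to 38.5) in the first, 13.2 (10.3 to 19.0) in the second and 12.4 (10.6 to 20.5) in the third. Each of these medians was below that of the rest of chromosome 6, but the order-statistic interval of the first spans the rest's median. The lowest scores were 4.01, 2.62 and 4.48, and each interval held 1 peak in the top 10% of the list.

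In the first interval, the highest score was 116.7, at a 479 bp peak from 26474277 to 26474755 that ranked 2496th of the whole list. It stood alone, with its nearest neighbour 45980 bp away. The second and the fourth highest formed a pair 331 bp apart. The peak from 26595940 to 26596445 scored 74.997, and the one from 26596777 to 26597336 scored 45.2. The third highest lay from 26341780 to 26342276 and scored 56.9. The widest peaks of this interval were 922 bp from 26322240 to 26323161, with a score of 38.5, and 876 bp from 26520736 to 26521611, with a score of 39.9. Both stood apart from other peaks, by 5049 and 11447 bp.

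In the second interval, the highest score was 150.6, at a peak from 27440475 to 27441415 that ranked 1333rd of the list and was also the second widest there, at 941 bp. Directly before it lay the longest stretch of this interval that had no peak, 83.6 kb from 27356918 to 27440474. The next in score were a 669 bp peak from 27639777 to 27640445 with 100.1, a 416 bp peak from 27655948 to 27656363 with 67.3 and a 373 bp peak from 27300902 to 27301274 with 57.7. The widest peak of this interval, 1077 bp from 27280106 to 27281182, scored only 11.8. It and the peak that scored 57.7 were nearest neighbours, 19719 bp apart, so that the wider of these neighbours had the lower score.

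In the third interval, the highest score among all 93 peaks, 178.6, belonged to a 1188 bp peak from 28831153 to 28832340 that ranked 799th of the list. The next were a 947 bp peak from 28806107 to 28807053 with 88.3 and the widest member, 1347 bp from 28890820 to 28892166, with 65.2. These 3 peaks were all wide, and each was more than 16 kb from its nearest neighbour. The fourth highest, from 28863843 to 28864266 with a score of 39.6, was part of the closest pair of all members. Its partner, from 28863177 to 28863743, scored 35.3, and 99 bp separated them.

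The 10 highest-scoring members, with scores from 56.9 to 178.6, were spread over the intervals, with 3 in the first, 4 in the second and 3 in the third. Of these 10, 8 had no neighbour within 1 kb, against 61 of all 93 members and 1267 of the 1554 peaks in the rest of chromosome 6.

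**Figure D2:**
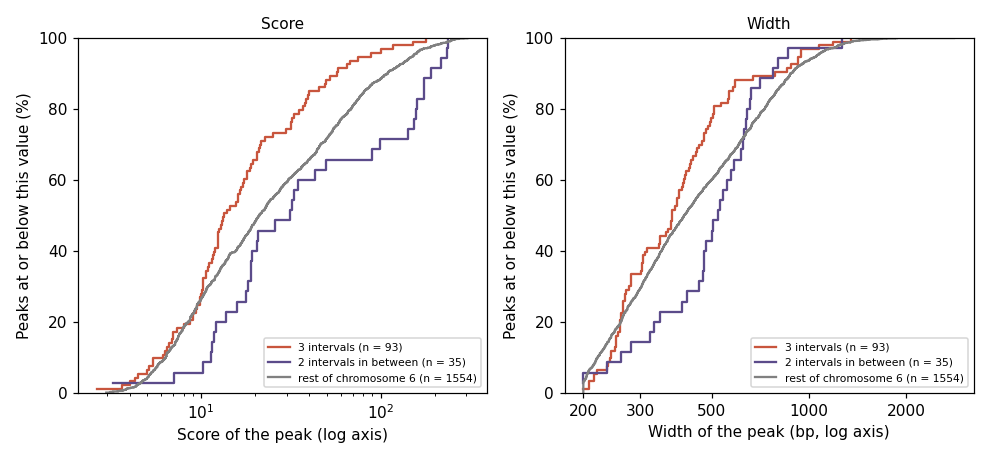
Cumulative share of peaks (vertical, %) by score (left) and by width in bp (right), both on log axes, for the 93 peaks of the 3 intervals, the 35 peaks of the 2 intervals in between and the 1554 peaks of the rest of chromosome 6, which include those 35. The curve of the 3 intervals lies left of the others above a score of about 10, with medians of 13.4, 31.2 and 21.1.

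Against the rest of chromosome 6, widths differed less than scores. The members' median width was 375 bp (311 to 413), with quartiles of 266 and 485 bp, against 410 bp (395 to 430) in the rest of chromosome 6, with quartiles of 279 and 662 bp. The order-statistic intervals of these medians overlapped. From 24 to 34 Mb outside the intervals the median width was 524 bp (457 to 555), above that of the members with no overlap. By interval, the medians were 396, 373 and 377 bp. The upper quartiles lay farther apart than the medians. A width over 800 bp was found at 9 members (9.68%, exact interval 4.52 to 17.6%), against 14.6% of the rest of chromosome 6 and 16.3% of all nuclear peaks, which lie within that interval. The share was 17.9% (13.2 to 23.5%) from 24 to 34 Mb outside the intervals. The lowest width of the list, 200 bp, was found at 1 member (1.08%, exact interval 0.0272 to 5.85%). The shares of 3.22% in the rest of chromosome 6 and 2.97% of all nuclear peaks lie within that interval.

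Score and width come from the same peak call and were related within the members, as in the list (Spearman's rho 0.72 over the 93 members and 0.80 over the 1554 other peaks of chromosome 6, given as a description). Scores were also compared within classes of width. Among peaks of middle width, over 323 and up to 579 bp, the 41 members had a median score of 19.4 (14.6 to 29.8) and the 509 other peaks 25.2 (22.7 to 27.4). Among wider peaks, the 14 members had a median of 39.2 (20.5 to 100.1) and the 505 others 66.3 (59.2 to 71.7). Among narrow peaks, up to 323 bp, the order was the opposite, with a median of 10.1 (8.09 to 10.995) for 38 members and 8.68 (8.10 to 9.14) for 540 others. The order-statistic intervals overlapped in all 3 classes of width.

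**Figure D3:**
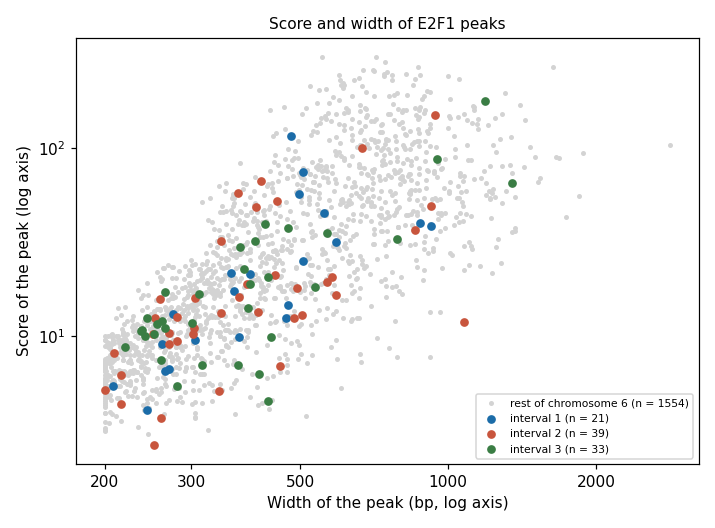
Score against width (bp) of each peak, both on log axes, for the members by interval and for the 1554 other peaks of chromosome 6 in grey. Wider peaks score higher in both, and the 1077 bp member with a score of 11.8 stands below the other wide members.

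Members lay close to other peaks. The median distance between a member and its nearest neighbour in the list, measured from edge to edge, was 3992 bp (2449 to 7573), with quartiles of 401 and 13094 bp, against 18287 bp (16196 to 19887) in the rest of chromosome 6. From 24 to 34 Mb outside the intervals the median was 6037 bp (4697 to 8075). By interval the median was 3992 bp in the first, 2668 bp in the second and 4615 bp in the third. Few members were isolated. No neighbour within 20 kb was found for 10 members (10.8%, exact interval 5.28 to 18.9%), against 47.4% of the rest of chromosome 6 and 44.8% of all nuclear peaks. Of these 10, 5 were in the first interval, 1 in the second and 4 in the third. From 24 to 34 Mb outside the intervals the share was 21.0% (15.9 to 26.8%), with an exact interval that overlapped that of the members. In the 2 intervals in between it was 8.57% (1.80 to 23.1%), below that of the members. A denser region has closer neighbours by construction, so distance and density are not separate results.

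The number of members varied along the intervals. Bins were not counted outside the intervals, so whether this is particular to the members was not analysed here. In whole bins of 50 kb, the median bin held 1 peak in the first interval and 3 in both others, and each interval had 2 empty bins. The fullest bins held 6, 6 and 7 peaks, and in the first and second interval these were the first 50 kb. In the third it was the bin from 200 to 250 kb after the interval's start. The longest peak-free stretches between members were 97.9 kb in the first interval, from 26660318 to 26758256, 83.6 kb in the second, and 68.1 kb in the third, from 28642493 to 28710623.

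**Figure D4:**
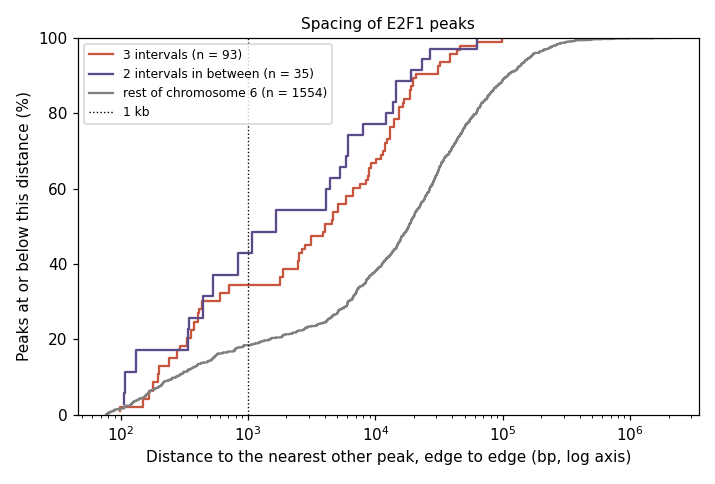
Cumulative share of peaks (vertical, %) by the distance to the nearest other peak in bp (horizontal, log axis), for the members, the 2 intervals in between and the rest of chromosome 6. At the dotted line of 1 kb the curves stand at 34.4% for the members, 42.9% for the intervals in between and 18.5% for the rest.

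Many members were part of a close pair or triplet. A neighbour within 1 kb was found for 32 members (34.4%, exact 95% interval 24.9 to 45.0%), against 18.5% of the rest of chromosome 6 and 17.3% of all nuclear peaks. The share was 33.3% in the first interval, 38.5% in the second and 30.3% in the third. From 24 to 34 Mb outside the intervals it was 29.3% (23.5 to 35.6%), and the exact intervals of the members and of that region overlapped.

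The 32 peaks formed 13 pairs and 2 triplets, and joining them left 76 sites from 93 peaks. Gaps within these runs were from 99 to 709 bp with a median of 292 bp, and 15 of the 17 gaps were under 500 bp. In the rest of chromosome 6 the median of 152 such gaps was 254 bp, and 115 were under 500 bp. The runs of members spanned from 635 to 1553 bp.

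Both triplets were weak. One opened the first interval, with peaks from 26312726 to 26312987, from 26313227 to 26313491 and from 26313784 to 26313991. They scored 9.005, 6.46 and 5.41, and were separated by 239 and 292 bp. The other triplet lay near the start of the second interval, with peaks from 27144904 to 27145112, from 27145522 to 27145772 and from 27145972 to 27146456. Their scores were 8.09, 10.2 and 12.4, and their gaps 409 and 199 bp. The longest pair, 1506 bp from end to end in the third interval, joined a peak from 28948933 to 28949194 that scored 11.97 to a peak from 28949904 to 28950438 that scored 18.1.

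No run of members held a peak of the top 10% of the list. In 10 of the 15 runs every peak was below the list's median score, against 29 of 135 runs in the rest of chromosome 6. A peak in the top 10% was in 0 of 15 runs, and in 20 of 135 runs (14.8%) of the rest. With 3 counts as the limit, 0 of 15 leaves room for a share of 20%, so a difference was not detectable with so few runs. The highest score in a run was divided by the lowest as a measure of unevenness. Its median was 1.66 over the members' runs and 3.25 over the runs of the rest. A run's highest score limits this ratio, so it is not separate from the low scores, and no error range was computed. The most uneven run of members, at 6.60, was the pair in the second interval from 27655214 to 27656363, with scores of 10.2 and 67.3. The most even, at 1.08, was the pair in the third interval from 28565012 to 28566134, with scores of 10.995 and 10.2.

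Scores of members with and without a near neighbour were not clearly apart. The median score was 11.3 (6.95 to 18.1) for the 32 members with a neighbour within 1 kb and 16.4 (12.5 to 20.5) for the 61 others, and these intervals overlapped. In the rest of chromosome 6 the medians were 23.97 (20.4 to 28.9) for 287 peaks with such a neighbour and 20.4 (18.6 to 22.7) for 1267 without. The difference between these contrasts was not tested. The list has neither summits nor signal, so a close pair cannot be told apart from a single broad stretch of enrichment that the caller split.

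At the borders of the second interval, scores differed widely between the nearest member and the nearest peak outside. Before its start, the peak from 27114613 to 27115184 scored 174.1, and the first member, from 27125237 to 27125506, scored 8.99. After its end, the last member, from 27759923 to 27760203, scored 12.5 and the next peak, from 27775448 to 27776109, scored 159.1. The same held at the start of the first interval, where the peak from 26285526 to 26286068 scored 81.8 and the first member 9.005. At the end of the first interval, the last member, from 26758257 to 26758729, scored 14.6 and the next peak, from 26924083 to 26924362, scored 13.7. At the start of the third, the last peak outside, from 28351008 to 28351594, scored 43.0 and the first member, from 28411089 to 28411492, scored 31.9. After the third interval came a long stretch without a peak. The last member, from 28953235 to 28953707, scored 37.7, and the next peak was only at 29404586, with a score of 19.96.

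Pooled over the 2 intervals in between, scores were higher. Their 35 peaks had a median score of 31.2 (18.9 to 89.0), and 10 of them (28.6%, exact interval 14.6 to 46.3%) were in the top 10% of the list, against 3 of 93 members. The exact intervals of these shares did not overlap. The median width was 524 bp (470 to 617), above the members' 375 bp, also without overlap of the order-statistic intervals. A neighbour within 1 kb was found for 15 of the 35 peaks (42.9%, exact interval 26.3 to 60.6%). The 35 peaks were of unlike kinds. The 7 of the first interval in between had a median score of 141.4 at 25.9 peaks per Mb, and the 28 of the second 23.3 at 44.4 per Mb. Of these 28, the 15 after a long peak-free stretch had a median score of 19.0 (11.7 to 32.0), and 0 were in the top 10% of the list. The order-statistic interval of this median overlapped that of the members and included the 21.1 of the rest of chromosome 6. These stretches were left out of the rule, with scores of this list already known, so the contrast is a description.

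Many peaks of the list share exactly the same score, and 2 of these were members. There were 27 score values, from 4.37 to 27.2, that were each held by at least 25 peaks. Of the 64 members in this range, 2 held one (3.12%, exact interval 0.381 to 10.8%), against 9.17% in the rest of chromosome 6 and 15.4% of all nuclear peaks. The upper bound lies above the share in the rest of chromosome 6 and below that of all nuclear peaks. From 24 to 34 Mb outside the intervals the share was 16.2% (9.72 to 24.7%), and its exact interval overlapped that of the members. Of the 2 members with a repeated score, 1 was in the first interval and the other in the second.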

How the data were processed

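The data are 1 peak list from the E2F1 library. CASAVA 1.6.0, Bowtie and MACS2 2.0.9 with the build hg19 are named per the submitters' processing notes. The sources used here do not state what each tool did, its settings, the peak threshold or any use of the input. The file as deposited has 5 columns and no header, and the score deposited by the authors is its last column, with no scale named. Starts were taken as 0-based and are printed 1-based. The members and all lists were chosen with earlier results of these data known.

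Distances were computed from edge to edge to any other peak of the list, with scipy 1.17.1, numpy 2.4.6 and pandas 2.3.3 under Python 3.11.15 (figures with matplotlib 3.10.9). A run is a set of peaks each within 1 kb of the next. Density used the interval length, or for chromosome 6 the extent from its first to its last peak. Medians have 95% intervals from order statistics, shares exact Clopper-Pearson intervals and densities Poisson intervals, all for counting error only. No p-value was computed, since there is 1 library and the region was chosen for its peaks. Distances and runs were tested on simulated data. Named peaks are the 4 highest-scoring and 2 widest of each interval, the 3 runs with most peaks, the closest pair, the longest peak-free stretches and the peaks at the borders. The most even and most uneven runs and the stretch within the intervals in between were chosen after their values were seen. RefSeq names (GRCh38.p14) were used for gene order only. Distances to genes and sequences of hg19 were not analysed here.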

Additional observations from a re-analysis of the deposited data

How the results depend on the processing

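Of 63 alternatives, 5 outside the density ratio changed only the comparison, to chromosome 6 from 24 to 34 Mb. They left the members' value as it was. In these the median width compared was 524 bp in place of 410 bp and the top 10% share 19.2% in place of 10.04%. Of the other 58, 44 stayed within the counting interval of the value as described, 13 moved beyond it and 1 changed its direction against the rest of chromosome 6. Of the 63, 8 were chosen after seeing the data. Counting any overlap or only peaks wholly within an interval left the number at 93. Leaving out 1 of the 3 intervals kept density, distance, near share, width, score and top 10% share within their counting intervals (not run for repeated scores). Those subsets are parts of the same 93 peaks, so values near those of the whole were likely beforehand. With the top 50% of peaks by score, density was 14.6 peaks per Mb and 3.40 times the rest. With the top 10% it was 1.69 per Mb and 1.82 times the rest (0.372 to 5.43), on 3 members. Lower densities follow from fewer peaks. The ratio was 4.52 without peak-free stretches over 1 Mb in the rest and 5.78 without the intervals in between. Against chromosome 6 from 24 to 34 Mb it was 1.88. Only the rest was redefined for these ratios, which are counted among the 58. In the top 50% by score, the median distance to the nearest such peak was 21358 bp (40253 bp in the rest). The share of these members with a neighbour within 1 kb was 23.1% (10.1% in the rest), and their median width 533 bp (661 bp in the rest). Joined peaks had a median width of 434 bp (446 bp in the rest). A neighbour within 5 kb was found for 53.8% of members, against 26.9% of the rest of chromosome 6. From 24 to 34 Mb outside the intervals that share was 44.5%. By class of width, the median score was 19.4 for middle and 39.2 for wide members, below the rest. For narrow members it was 10.1, above the 8.68 of the rest, and the cause was not tested. Results by tRNA gene or gene start were not run, since no hg19 annotation was used here, and with 1 library no replicate could be left out. No paired analysis was possible, because there is a single E2F1 library and the list holds no values for the input of the same cells. The limits set by depth are unknown, as the list has no read counts.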

Other observations

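The second interval in between, from 27770000 to 28399999, held peaks of unlike score on the sides of a peak-free stretch of 176.6 kb, from 27871187 to 28047816. Before the stretch were 13 peaks with a median score of 99.7 (12.2 to 215.6), of which 6 were in the top 10% of the list. After it were 15 peaks with a median score of 19.0 (11.7 to 32.0), of which 0 were in the top 10%. The highest of these 15 scored 43.0. The median score of these 15 lay nearest to the 21.1 of the rest of chromosome 6, which includes them. It was also nearer to the members' 13.4 than to the median of the 13 peaks before the stretch. A neighbour within 1 kb was found for 2 of the 15 (13.3%, exact interval 1.66 to 40.5%), which overlaps the members' 24.9 to 45.0% and includes the 18.5% of the rest of chromosome 6. Density was 128.5 peaks per Mb (68.4 to 219.7) before the stretch, up to the last peak, and 28.4 (15.9 to 46.8) after that peak, with the peak-free stretch counted in. The 3 intervals had 52.2. This stretch was singled out after its values were seen, and which genes lie on its sides was not analysed here.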
